A study of Mus musculus with 4 samples.

Results

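A set of 10 regulators of the naive pluripotent state were followed across 4 populations of mouse lung cells. The genes are Esrrb, Tfcp2l1, Klf2, Klf5, Tbx3, Prdm14, Zfp42, Nr0b1, Tcl1 and Dppa3. They were taken by symbol from a fixed list, and all 10 had a probe set among the 23185 named genes of the table. The list separates 3 genes that lung epithelium or mesenchyme also uses, Tfcp2l1, Klf5 and Tbx3, from 7 that it treats as restricted to pluripotent cells. RNA came from club cells of adult lung taken straight from the tissue (Day0) and from club cells kept 3 weeks with doxycycline (3w+Dox, also called Club-iPL). It also came from such cells kept for a further 2 weeks in medium without the drug (3w+Dox+2w-Dox, called withdrawn cells here) and from iPS cells, pluripotent stem cells induced from club cells. The labels state no strain, sex, number of animals, method of isolation or feeder layer, nor the transgenes that doxycycline, a drug used to switch on inducible genes, was meant to drive. Each population was hybridised to 1 Affymetrix array, so no difference has a replicate check and precision is limited by that number. Cells cultured without the drug from the start were not analysed here, so time in culture and doxycycline cannot be told apart.

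Naive pluripotency is the state of the inner cell mass of the early embryo and of mouse embryonic stem cells grown with leukaemia inhibitory factor (LIF). LIF acts through the receptor chains Lifr and Il6st on the transcription factor Stat3, which raises Tfcp2l1 and some of the Krüppel-like factors. Wnt signals and inhibition of the kinase Gsk3 relieve repression by Tcf7l1, which raises Esrrb. Signalling by fibroblast growth factor through Erk works against this network and favours the later, primed state. Several of these factors have a second life in somatic tissue. Klf5 and Tfcp2l1 act in epithelia, Tbx3 acts in the mesenchyme of developing organs, lung included, and Klf2 is known from endothelium and resting lymphocytes.

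Signals are log2 values made by robust multi-array averaging, and the median of all values was 6.67. A gene was called higher or lower when 2 arrays differed by 2 log2 units (4-fold) or more and the brighter of them reached that median. As a guide to the level of silent genes, 1350 olfactory and vomeronasal receptor genes had a 95th percentile of 5.82 in Day0 cells, 5.64 on doxycycline, 5.73 after withdrawal and 5.77 in iPS cells. Probe sets differ in brightness for reasons other than RNA amount, so levels are compared between arrays and not between genes, and a difference that starts near that level has no exact size. All 10 club cell markers were at or above 6.67 at Day0, but so were 9 of 9 alveolar type 2 and 10 of 10 ciliated cell markers. Mesenchymal markers were at or above it for 4 of 13 at Day0 and 13 of 13 on each other array, with summed signals of 10.77, 16.01, 16.06 and 14.73 (log2 of the summed linear signals, in the order Day0, 3w+Dox, withdrawn and iPS). Leukocyte markers gave 4, 12, 12 and 8 of 16 in that order, and endothelial markers 2, 5, 4 and 7 of 16. In iPS cells 21 of 22 other genes of the naive network were at or above 6.67, against 5 at Day0.

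The iPS cells stood apart from the other 3 populations in these regulators. Of the 10 genes, 7 were higher in iPS cells than at Day0 and 0 were lower, where 4.89% and 5.90% of all named genes were higher and lower. The same 7 genes were higher in iPS than in 3w+Dox cells, against 3.57% of named genes higher and 5.16% lower. Against withdrawn cells these 7 and Tfcp2l1 were higher, 8 in all, against 3.83% and 5.05%. The median difference of the 10 genes between iPS and Day0 was 3.77, beside 0.0031 over all named genes. It was 1.66 for the 3 genes shared with lung and 4.31 for the other 7.

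Between the 3 lung populations, 1 of the 10 genes was called, Tbx3. It was higher in 3w+Dox cells than in Day0 cells, where 4.31% of named genes were higher and 2.88% lower. With 7.19% of named genes called in either direction, 1 of 10 is near the background. Klf5 at -1.88 in the same comparison and Tfcp2l1 at -1.93 after withdrawal fell just short of the call. Withdrawn cells differed from 3w+Dox cells in 0 of the 10 genes, against 0.302% higher and 0.470% lower. They differed from Day0 in 0 of 10 as well, against 4.05% higher and 1.85% lower. At a 2-fold threshold Klf5 was added as lower in both comparisons with Day0, Tbx3 as higher in withdrawn cells, and Tfcp2l1 as lower after withdrawal. At that threshold 2 of the 10 genes were called in each comparison with Day0, against 16.2% of named genes for 3w+Dox and 15.6% for withdrawn cells, which is near the background. After withdrawal it was 1 of 10, against 3.34%.

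**Figure D1:**
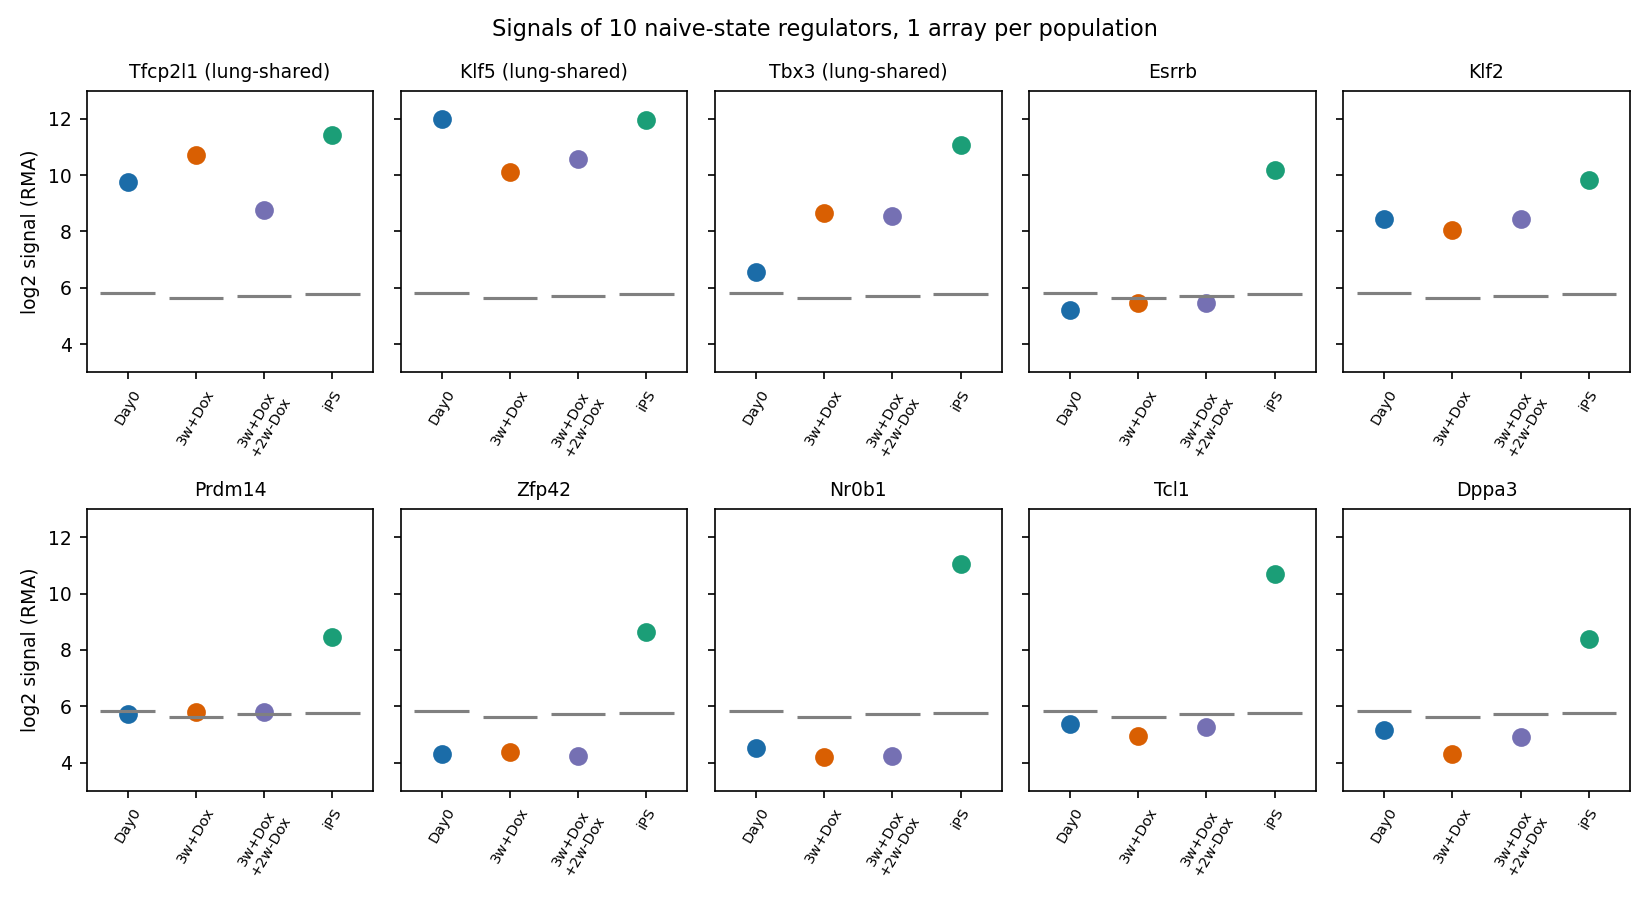
Signal of each of the 10 regulators (vertical axis, log2 signal) on the arrays of Day0, 3w+Dox, 3w+Dox+2w-Dox and iPS cells, 1 point per array. Grey bars mark the 95th percentile of 1350 olfactory and vomeronasal receptor genes on that array. Tfcp2l1, Klf5, Tbx3 and Klf2 lie above the bars on all 4 arrays, while Esrrb, Zfp42, Nr0b1, Tcl1 and Dppa3 rise above them in iPS cells alone.

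Nr0b1 (Entrez gene 11614), also called Dax1, an orphan nuclear receptor without a DNA-binding zinc finger domain that represses transcription, gave the largest difference. It read 4.52 in Day0 cells, 4.21 on doxycycline, 4.26 after withdrawal and 11.07 in iPS cells. The 3 lung populations lay below the receptor guide level and within 0.31 of each other, and iPS cells lay 6.55 above Day0. Only 5 named genes had a larger increase in that comparison. Tcl1 (21432), a coactivator of the kinase Akt, read 5.39, 4.93, 5.26 and 10.69 in the same order. Its iPS signal was 5.30 above Day0, and the other signals were again below the guide level.

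Esrrb (26380), an estrogen-related receptor that binds many of the sites bound by Oct4 and Sox2, read 5.20 in Day0 cells, 5.48 on doxycycline, 5.45 after withdrawal and 10.17 in iPS cells. It was 4.97 higher in iPS cells than at Day0 and moved by at most 0.27 among the lung populations. Zfp42 (22702), the zinc finger protein Rex1 and a standard marker of the naive state, read 4.31, 4.37, 4.24 and 8.62. This is a difference of 4.31 between iPS and Day0, with a range of 0.13 among the other 3 arrays. Of all pairs of the 10 genes, Esrrb and Zfp42 had the most similar course over the 4 arrays, with a Euclidean distance of 0.48 between signals centred on each gene's mean.

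Dppa3 (73708), also called Stella, which protects DNA methylation marks in the early embryo, read 5.17, 4.32, 4.91 and 8.40. It was 3.23 higher in iPS cells than at Day0 and 4.07 higher than at 3w+Dox, and its Day0 signal was 0.85 above that at 3w+Dox. That smaller difference lay inside the central 95% of receptor gene differences between the same arrays, which ran from -1.02 to 0.66. Prdm14 (383491), a repressor of fibroblast growth factor signalling and of the de novo methyltransferases, read 5.74, 5.79, 5.82 and 8.47. Its difference from Day0 was 2.73 in iPS cells, the smallest among the 6 called genes of this group, and its 3 other signals spanned 0.08.

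Klf2 (16598), a Krüppel-like factor that is degraded under Erk signalling in stem cells, did not behave as restricted to pluripotent cells. It read 8.44 in Day0 cells, 8.06 on doxycycline, 8.45 after withdrawal and 9.81 in iPS cells. All 4 signals were above the guide level, and the iPS signal exceeded Day0 by 1.37, short of the call. Endothelium, where Klf2 is known to act, had a summed marker signal of 11.97, 11.54, 11.61 and 11.89, but its markers did not move together. Kdr read 11.57 at Day0 and at most 6.12 elsewhere, and Pecam1 read 9.22 in iPS cells and at most 5.56 elsewhere. Eng was higher on all 3 other arrays than at Day0 (6.05, 10.46, 10.65 and 10.54), Flt1 was higher in both cultures (5.62, 8.84, 9.24 and 6.89), and Egfl7 was higher in iPS cells, at 9.23. Cdh5 and Tie1 read at most 6.80 and 5.39 on any array. Leukocyte markers summed to 10.57 at Day0 and 13.79 at 3w+Dox. Their part in the Klf2 signal was not tested. Without Klf2 the median difference of this group between iPS and Day0 was 4.64. Between 3w+Dox and Day0 the median of all 7 was -0.31, beside -0.09 over all named genes, and all 7 lay inside the central 95% of receptor gene differences.

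**Figure D2:**
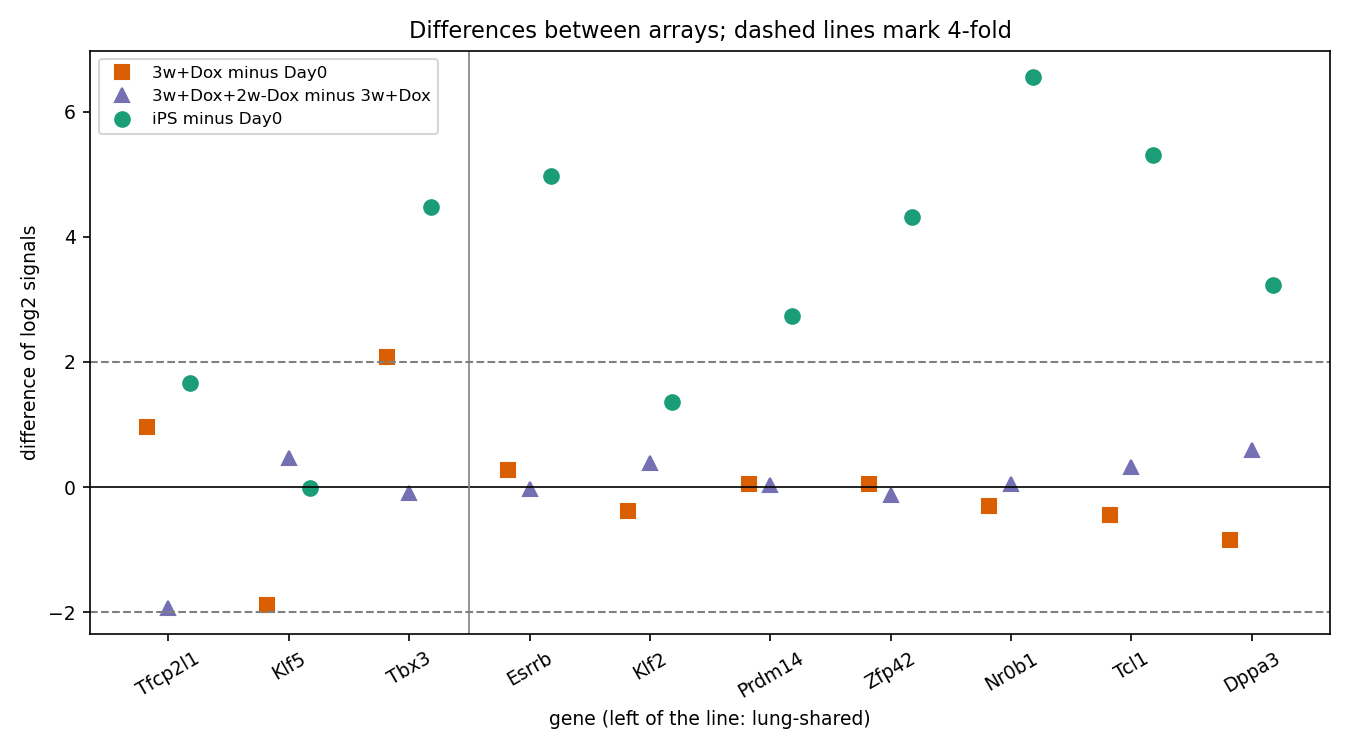
Difference of log2 signals (vertical axis) for each regulator in 3 comparisons, given by marker shape and colour, with dashed lines at 2 log2 units. The iPS minus Day0 differences run from -0.01 for Klf5 to 6.55 for Nr0b1, and Tbx3 at 3w+Dox is the one point beyond a line that does not involve iPS cells.

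The start sites of these genes were read to see what the genes that came up together in iPS cells share in sequence, and how they differ from genes bright in lung. Windows of 300 bases, 250 before and 50 after the annotated start, were found in RefSeq (GRCm38.p6) for 6 of the 10 genes, with 2 for Esrrb. Shown are 2 genes near the guide level in lung, Zfp42 and Nr0b1, and 2 bright on every array, Klf2 and Tfcp2l1. They lie at chr8:43306960-43307259 (minus strand), chrX:86191525-86191824 (plus), chr8:72318812-72319111 (plus) and chr1:118627695-118627994 (plus). Each is written 5′ to 3′ along its gene, with matches to an octamer, KLF box or TATA box in capitals.
Zfp42: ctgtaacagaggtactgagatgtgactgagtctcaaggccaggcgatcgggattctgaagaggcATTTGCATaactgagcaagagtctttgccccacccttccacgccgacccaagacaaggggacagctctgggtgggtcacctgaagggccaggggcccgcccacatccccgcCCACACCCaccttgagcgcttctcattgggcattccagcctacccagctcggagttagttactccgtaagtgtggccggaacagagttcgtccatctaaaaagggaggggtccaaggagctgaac
Nr0b1: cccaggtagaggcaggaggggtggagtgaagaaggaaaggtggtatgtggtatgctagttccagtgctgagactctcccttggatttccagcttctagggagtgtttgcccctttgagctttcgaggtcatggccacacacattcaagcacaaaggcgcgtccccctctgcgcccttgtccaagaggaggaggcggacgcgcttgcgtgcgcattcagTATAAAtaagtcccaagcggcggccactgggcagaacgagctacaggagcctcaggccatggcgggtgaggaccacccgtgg
Klf2: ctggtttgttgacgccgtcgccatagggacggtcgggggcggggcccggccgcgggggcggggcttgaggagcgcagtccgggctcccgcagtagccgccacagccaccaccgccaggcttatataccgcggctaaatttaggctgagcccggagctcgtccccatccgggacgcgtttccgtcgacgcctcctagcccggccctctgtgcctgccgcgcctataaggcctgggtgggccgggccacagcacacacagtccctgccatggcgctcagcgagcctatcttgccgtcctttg
Tfcp2l1: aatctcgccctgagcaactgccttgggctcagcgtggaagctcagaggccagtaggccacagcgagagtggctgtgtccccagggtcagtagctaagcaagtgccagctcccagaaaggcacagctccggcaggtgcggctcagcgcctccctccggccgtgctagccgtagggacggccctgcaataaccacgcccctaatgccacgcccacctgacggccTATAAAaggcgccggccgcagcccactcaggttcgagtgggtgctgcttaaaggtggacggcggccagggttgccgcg

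The Zfp42 window holds an octamer (ATGCAAAT, the word read by POU factors such as Oct4) on the opposite strand, beginning at position -186 from the start site. Of the 32851 RefSeq windows, 1.74% hold one. It also holds a KLF box (CCACACCC) at position -75, a word found in 3.56% of windows. The Nr0b1 and Tfcp2l1 windows hold a TATA box (TATAAA) at -32 and -28, as 13.6% of windows do on either strand. No window of the 6 genes held the Esrrb site TCAAGGTCA (0.423% of windows), the STAT palindrome TTCCNGGAA (1.15%) or the T-box word AGGTGTGA (1.28%), with both strands searched. A loose CP2 pair, the spacing used by Tfcp2l1, matched 70.2% of all windows, so a match sets no gene apart. CpG dinucleotides numbered 32 in the Klf2 and 21 in the Tfcp2l1 window, the genes bright on every array, against 14 for Nr0b1, 11 each for Zfp42 and Tcl1 and 7 in both Esrrb windows. The median window of the table held 7, with quartiles of 3 and 20. A match describes these letters and is not evidence of binding, and no match says nothing about the factor.

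Tfcp2l1 (81879), a CP2 family factor of the LIF pathway that also serves ducts and other epithelia, was brightest with the drug and in iPS cells. It read 9.75 in Day0 cells, 10.70 on doxycycline, 8.77 after withdrawal and 11.40 in iPS cells. The withdrawn cells gave the lowest signal of the 4. The 3w+Dox signal was 0.95 above Day0, and the withdrawn signal was 1.93 below 3w+Dox (3.80-fold), just short of the 4-fold call, and 0.98 below Day0. iPS cells exceeded withdrawn cells by 2.63 (6.21-fold) and 3w+Dox cells by 0.71. This order of the 4 arrays was held by 3.52% of named genes. With 3w+Dox at least 2-fold above withdrawn cells and the brightest array at or above 6.67, it was held by 29 genes (0.125%). The order was read from Tfcp2l1 itself, so these shares are a description and not a test.

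Epithelial markers moved in the same direction as Tfcp2l1 after withdrawal and in the opposite one in iPS cells. The 22 measured epithelial genes had a median difference of -0.84 between withdrawn and 3w+Dox cells, beside 0.03 over all named genes, with 1 called lower, the keratin Krt7 at -2.36. The next largest were the keratins Krt8 (-1.73) and Krt19 (-1.70) and the claudin Cldn4 (-1.35). In that comparison 0.470% of all named genes were called lower. Between iPS and Day0, 11 of the 22 epithelial genes were lower and 0 higher, against 5.90% and 4.89% of all named genes. Their median was -2.11, while Tfcp2l1 differed by 1.66 in the other direction. Summed epithelial signals were 15.95, 15.62, 14.57 and 14.44. In a population of mixed cells, fewer cells of a type and less RNA per cell cannot be told apart, and the part of epithelial content in the Tfcp2l1 signal was not tested.

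Klf5 (12224), a Krüppel-like factor of both the inner cell mass and airway and gut epithelium, was as bright in fresh lung as in iPS cells. It read 11.98 in Day0 cells, 10.10 on doxycycline, 10.57 after withdrawal and 11.97 in iPS cells. The 2 cultures were the low ones, and Day0 and iPS differed by -0.01. Its 3w+Dox signal was 1.88 below Day0 (3.68-fold), which was short of a call, and the withdrawn signal was 0.47 above 3w+Dox. In both steps the sign was opposite to that of Tfcp2l1. Among the 22 epithelial genes the median difference of 3w+Dox from Day0 was -0.71 and 3 were lower, the protease Prss8 (-2.51) and the transcription factors Grhl1 (-2.19) and Ovol1 (-2.06). The keratin Krt7 differed by 1.82 in the other direction, short of a call. In that comparison 2.88% of all named genes were lower and 4.31% higher. Between withdrawn and 3w+Dox cells the epithelial median was -0.84, with 0 of 22 above 0, while Klf5 differed by 0.47. Between iPS and Day0 the epithelial median was -2.11, with 1 of 22 above 0, beside -0.01 for Klf5.

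Tbx3 (21386), a T-box factor that sustains the naive state and also patterns mesenchyme, was the only one of the 10 regulators called at 4-fold between lung populations. It read 6.58 in Day0 cells, 8.66 on doxycycline, 8.57 after withdrawal and 11.05 in iPS cells. Day0 was low, both cultures were intermediate and iPS cells were high. The 3w+Dox signal was 2.08 above Day0 (4.23-fold), and the difference was 1.99 after withdrawal. The call at 3w+Dox sits at the threshold and was lost after a second quantile normalization. As a share of the difference in Tbx3 signal between Day0 and iPS, 3w+Dox cells stood at 46.5% and withdrawn cells at 44.4%. The other 6 genes called between iPS and Day0 stood between -26.2% and 5.51% in both cultures. Those 6 lay near or below the receptor guide level in the lung populations, so their shares have no exact size. Tfcp2l1, not called between iPS and Day0, was left out of these shares. Its 3w+Dox signal (10.70) also lay between Day0 (9.75) and iPS (11.40), while its withdrawn signal (8.77) lay below Day0.

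Mesenchymal markers, like Tbx3, were brighter on all 3 other arrays than at Day0, but their brightest arrays were the cultures. All 13 mesenchymal markers were higher in 3w+Dox cells than in Day0 cells, with a median of 5.55 beside -0.09 over all named genes, and 0 of 13 were called after withdrawal (median 0.05). The periostin gene Postn, the metalloproteinase Mmp2, the proteoglycan Lum and the collagen Col1a1 led the list. Of 13 transcription factors of lung mesenchyme, 8 were higher at 3w+Dox, with Prrx1, Meox2, Osr1 and Gli2 the furthest apart. In iPS cells 11 of 13 mesenchymal markers were higher than at Day0 and 0 lower, against 4.89% and 5.90% of all named genes. Their median difference was 3.18, beside 4.48 for Tbx3. Against 3w+Dox, 7 of the 13 markers were lower in iPS cells and 0 higher, beside 5.16% and 3.57% of all named genes. Their median difference was -2.91, while Tbx3 was 2.39 higher. The part of mesenchymal cells in the Tbx3 signal was not tested.

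**Figure D3:**
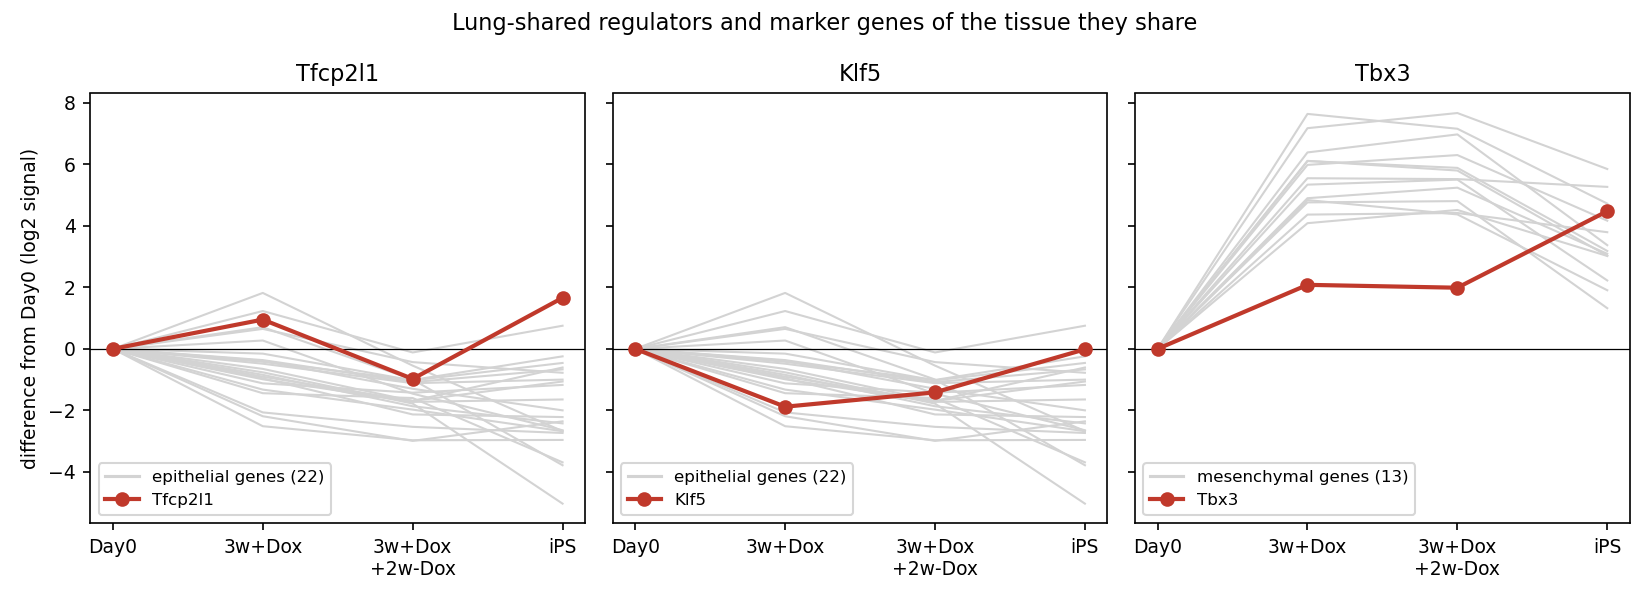
Difference of log2 signal from Day0 (vertical axis) over the 4 populations for Tfcp2l1 and Klf5 with 22 epithelial genes and for Tbx3 with 13 mesenchymal genes, each grey line 1 marker gene. In iPS cells Tfcp2l1 stands above all 22 epithelial genes, and Tbx3 reaches 4.48 while all 13 mesenchymal genes come down from their 3w+Dox level.

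Other members of the same families had courses of their own. Among 15 measured T-box genes, 4 were higher in 3w+Dox cells than in Day0 cells, against 4.31% of all named genes. These were Tbx15, Tbx18, Tbx5 and Tbx3. Tbx15 read 5.27 in Day0 cells, 10.83 on doxycycline, 11.34 after withdrawal and 7.73 in iPS cells, and Tbx5, a limb, heart and lung mesenchyme factor, read 5.53, 8.10, 8.48 and 5.59. Tbx18 read 6.02, 8.69, 8.96 and 6.53. Tbx15, Tbx5 and Tbx18 were lower in iPS than in 3w+Dox cells, where Tbx3 was higher. Eomes, an early mesendoderm and trophoblast factor, was 2.23 higher in iPS cells than at Day0, and Tbx1, which was brightest at Day0 (10.84), read 8.21 in iPS cells.

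Of 17 Krüppel-like factors, 1 was higher in 3w+Dox cells than in Day0 cells, Klf4, and 1 lower, Klf15, a metabolic regulator responsive to glucocorticoids. The other 15 were not called, and these counts are near the 4.31% and 2.88% of all named genes. Klf4 read 8.60 at Day0 and 10.72 at 3w+Dox, a difference of 2.12 opposite in sign to that of Klf5. Klf15 read 10.48, 5.99, 6.50 and 8.35. Klf8 read 6.57, 6.96, 6.87 and 10.03 and gave the largest difference of the family between iPS and Day0, at 3.46. Klf4 was also called higher in iPS cells and Klf15 lower. Klf17, a factor of the human naive embryo, spanned 6.08 to 6.43 over the 4 arrays.

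In the CP2 and grainyhead family, the close relatives Tfcp2 and Ubp1 were called in 0 of the 6 comparisons. Grhl3, an epithelial barrier factor, read 8.09 in Day0 cells, 7.16 on doxycycline, 5.66 after withdrawal and 10.46 in iPS cells. Like Tfcp2l1 it was lowest in withdrawn cells and highest in iPS cells. Grhl1 went down from 9.20 at Day0 to 7.01, 6.21 and 6.84. Among the nuclear receptors, Nr5a2, which can stand in for Oct4 in reprogramming, read 5.96, 5.33, 5.17 and 9.04 and was called together with Nr0b1 and Esrrb in iPS cells. Esrrg, a sister of Esrrb, ran the other way, with 8.49 at Day0 and 5.89, 5.98 and 5.65 on the other arrays. Esrra stayed between 7.98 and 8.34.

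**Figure D4:**
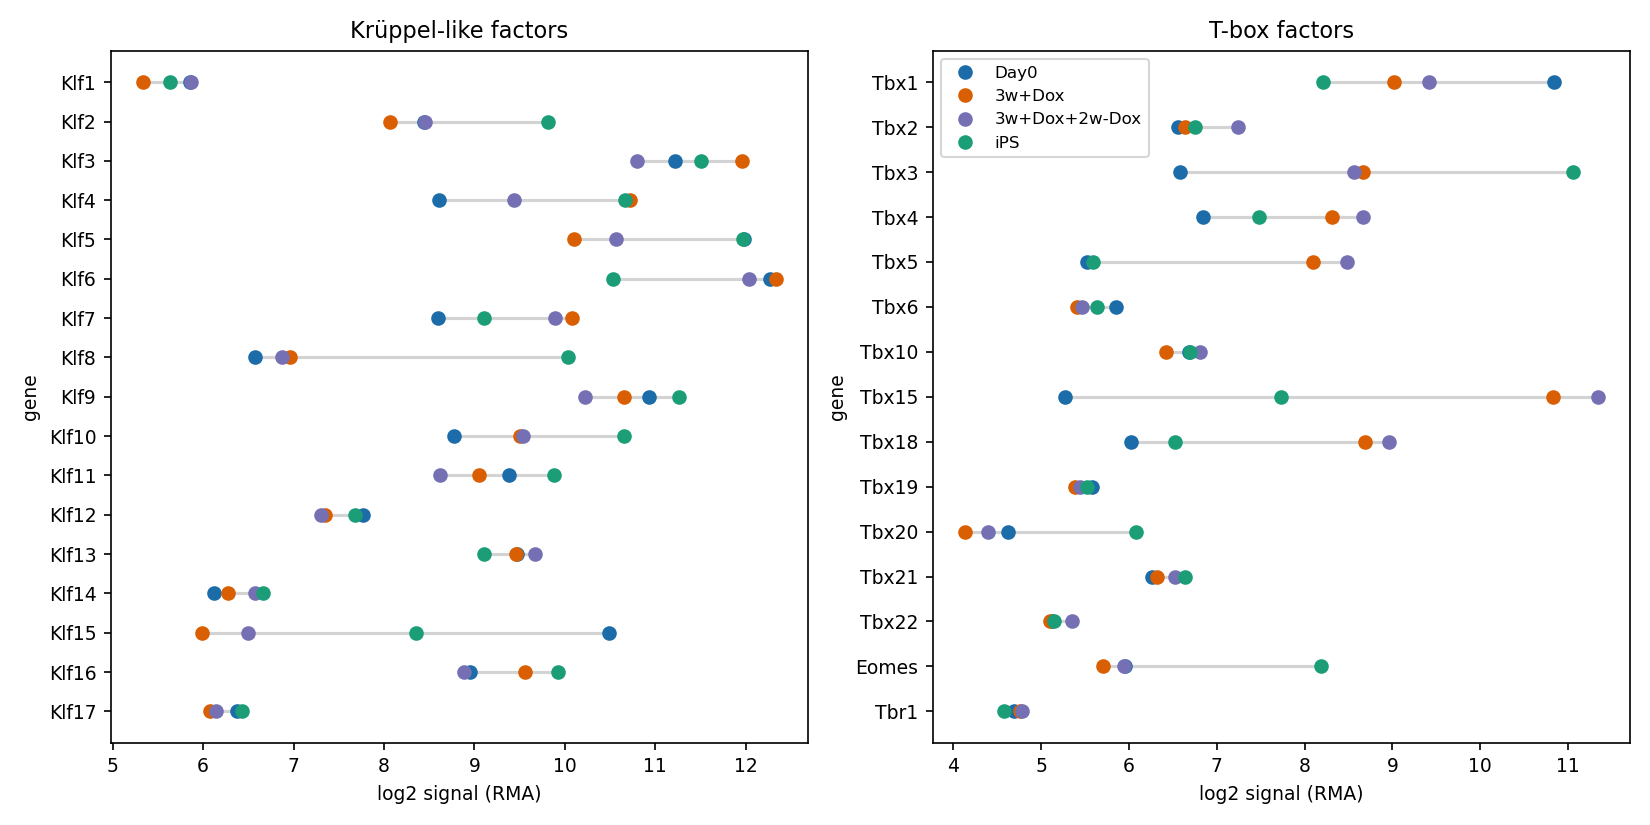
Signals (horizontal axis, log2) of 17 Krüppel-like and 15 T-box factors, 1 point per array coloured by population and joined by a grey line. Klf8 and Tbx3 have their brightest point in iPS cells, Klf15 and Tbx1 at Day0, and Tbx15, Tbx18 and Tbx5 in the doxycycline and withdrawn cultures.

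Most other genes of the naive network were also brighter in iPS cells. Of 22 measured genes, 18 were higher in iPS cells than at Day0 and 0 lower, beside 4.89% and 5.90% of all named genes. The median difference of the 22 was 4.48. The chromatin factor Utf1 differed by 8.06, the Nodal co-receptor Tdgf1 by 7.68, the core factor Nanog by 6.60 and the F-box gene Fbxo15 by 6.36. Several were bright in lung as well, among them Sox2 (10.65, 8.44, 8.85 and 12.07), Jam2 (10.95, 9.14, 10.23 and 11.99), Zfp296 (9.03 at Day0) and Tet2 (9.08 at Day0). Dppa5a read 5.08 at Day0 and 5.30 in iPS cells and was below the guide level on every array. At 3w+Dox 1 of 22 was higher (Klf4) and 1 lower (Sox2), near the 4.31% and 2.88% of all named genes, and 0 were called after withdrawal.

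Of 14 measured genes of the later, primed state, 9 were higher in iPS cells than at Day0 and 0 lower, with a median of 2.06. Of all named genes 4.89% were higher and 5.90% lower. Otx2, which directs the exit from the naive state, differed by 5.60, the methyltransferase Dnmt3b by 4.10, Zic2 by 3.57 and Etv4 by 2.45. Dnmt3b read 6.09, 5.97, 5.81 and 10.19, and Fgf5, a classical primed marker, read 6.07, 6.55, 6.54 and 8.20. Etv4 was higher in withdrawn cells than at Day0 too (2.16), and its iPS signal lay 0.29 above the withdrawn one. Against the cultures fewer genes were called, with 6 higher and 1 lower in iPS than in 3w+Dox cells and 5 higher and 1 lower than in withdrawn cells. The lower gene was the cadherin Cdh2 in both, at -2.36 and -2.15.

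Genes of the LIF and Stat3 pathway, targets included, were called in both directions, and those of the Wnt and Gsk3 pathway in neither. Of 9 LIF and Stat3 pathway genes, 1 was higher in iPS cells than at Day0 and 0 lower, beside 4.89% and 5.90% of all named genes. The list had a median difference of -0.64, with 4 of 9 above 0. The called gene was the Stat3 target Pim1, with 7.14 in Day0 cells, 9.54 on doxycycline, 8.57 after withdrawal and 11.19 in iPS cells. At 3w+Dox Pim1 was higher and Pim3 lower than at Day0, with Pim3 at 10.77 in Day0 cells, 8.20 on doxycycline, 7.74 after withdrawal and 10.77 in iPS cells. The receptor Lifr read 9.43, 9.22, 9.04 and 10.06. Il6st, Stat3 and Jak2 differed by -1.27, -1.08 and -0.80 between iPS and Day0, short of a call. Against 3w+Dox cells Jak2 was called lower in iPS cells (-2.05) and Pim3 higher (2.57). Pim3 (3.03) and Pim1 (2.62) were higher in iPS than in withdrawn cells. Of all named genes 3.57% were higher and 5.16% lower than in 3w+Dox cells, and 3.83% higher than in withdrawn cells. Of 7 Wnt and Gsk3 pathway genes, 0 were called in any of the 6 comparisons, and their median between iPS and Day0 was -0.15. The repressor Tcf7l1 read 10.64, 9.32, 9.79 and 10.25.

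Of 10 genes of the fibroblast growth factor and Erk pathway, 1 was higher in 3w+Dox cells than in Day0 cells and 0 lower. Of all named genes 4.31% were higher and 2.88% lower. The called gene was the inhibitor Spry4, which read 7.19, 10.37, 10.84 and 11.24. In iPS cells Spry4 and Etv5 were higher than at Day0 and the immediate early factor Egr1 (-3.38) and the receptor Fgfr2 (-3.12) lower, with a list median of 0.88. That is 2 higher and 2 lower of 10, beside 4.89% and 5.90% of named genes. Of 11 measured genes listed as partners of the regulators, 1 was called between iPS and Day0, near the 10.8% of all named genes. The list had a median of 1.15. The called gene was Uhrf1, which recruits the maintenance methyltransferase and is held off chromatin by Dppa3. It read 7.04, 7.16, 6.85 and 10.83. The Prdm14 partner Cbfa2t2 read 9.30, 9.40, 9.38 and 10.82, a difference of 1.51, and the Esrrb coactivator Ncoa3 differed by 1.68.

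Genes with the most similar course over the 4 arrays were sought among 17892 named genes, by the Euclidean distance between signals centred on each gene's mean. Closest to Tfcp2l1 were Zfp984 (distance 0.16), Sh3gl2 (0.35), Misp3 (0.38), Uchl3 (0.49) and Slc17a9 (0.49). Closest to Klf5 were Idh2 (0.17), Prr36 (0.17), Derl3 (0.24), Shisa7 (0.25) and Rpgr (0.26). Tbx3 had Ddias (0.16), Zfp462 (0.19), Rrm2 (0.21), Tcfl5 (0.28) and Pclaf (0.33) nearest. The median course of the other 7 regulators lay nearest to Arl14epl (0.07), Zfp42 itself (0.08), Ina (0.09), Dnmt3b (0.18) and Usp26 (0.19). With 4 points a gene, these are descriptions of the arrays.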

How the data were processed

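RNA of 4 populations was measured on 1 Affymetrix array each, and groups were read from sample titles. Per the submitters' processing notes, the authors used RMA with the affy package in R 3.0.2. The log2 scale of the deposited signals was inferred from their range of 1.70 to 13.85. The probe set annotation and genome build were not given in the sources used here. Each of the 25206 probe sets carries an Entrez gene ID. Of them 23185 had 1 symbol in the platform annotation, 0 had several and 2021 had none and were left out. RefSeq's list held all 23185 of these IDs.

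Differences of log2 signals were taken for 6 pairs of arrays with pandas 2.3.3. No p-value was computed, since no replicate spread exists. Calls were tested on simulated data. The members, lists and thresholds were chosen with earlier results of these data known. Named genes are the 10 members, called members of their families, up to 4 members of each other list with the largest difference, and the 5 nearest in course. Further genes of a list given with their signals (Tfcp2, Ubp1, Klf17, Esrra, Lifr, Cbfa2t2, Fgf5, Dppa5a, Jam2, Tet2, Zfp296, Tcl1b1, Yy1, Yy2, Cdh5 and Tie1) were chosen after their values were seen. Nearest genes leave out predicted, clone-named and sensory receptor genes. Alternatives were other fold thresholds, filters on dim probe sets, 2 other scalings and a floor at the 25th percentile (5.07). Promoter windows are RefSeq's for GRCm38.p6.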

Additional observations from a re-analysis of the deposited data

How the results depend on the processing

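Of 81 alternative values of the counts and medians, 65 stayed within 1.5 times the count or within 0.3 log2 units of the median. The count of members called between 3w+Dox and Day0 (1) became 2 at a 2-fold threshold and 0 at an 8-fold threshold, with the filter at the 75th percentile (8.82) or after a second quantile normalization. Between withdrawn and 3w+Dox cells it went from 0 to 1 at 2-fold, and between withdrawn cells and Day0 from 0 to 2 at 2-fold and to 1 (Tbx3) with arrays centred on brighter genes. The stricter filter left 4 of 7 for iPS against Day0, 4 of 7 against 3w+Dox and 5 of 8 against withdrawn cells, where 8-fold also left 5. That filter removes Prdm14, Zfp42 and Dppa3, whose iPS signals lie below 8.82. Raising dim values to 5.07 took the median of the 7 other regulators to 3.56 in all 3 comparisons with iPS, from 4.31, 4.26 and 4.39, and to 0 from -0.31 for 3w+Dox against Day0. Leaving out Klf2, chosen after seeing the data, gave 4.64 for iPS against Day0. For single genes, 388 of 420 alternative values kept their call or stayed uncalled within 0.3 log2 units. A called difference that stayed called was counted among these however far it moved. Of the rest, 18 lost the call, 11 gained it and 3 uncalled differences moved by over 0.3 with dim values raised. A change of sign was looked for only in called differences and in medians of at least 2 log2 units, and none was found. The thresholds and filters leave the differences themselves unchanged, so they could show none. Smaller differences did change sign, such as Klf5 between iPS and Day0 (-0.01, and 0.09 after a second quantile normalization). Another scaling moved no member's difference by more than 0.13. No paired analysis was possible because each population has 1 array. Leaving out an array removes its comparisons, so no such fit was made. Weak signals, and not a read depth, limit the sizes of differences that start near the receptor guide level.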

Other observations

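Families that no comparison above describes had few called members besides the regulators themselves. Of 7 measured genes of the Tcl1 family, Tcl1 was the only one called between iPS and Day0, where 10.8% of all named genes were called. Its relative Tcl1b1 read 5.78 in Day0 cells, 6.59 on doxycycline, 6.66 after withdrawal and 6.70 in iPS cells. Of 12 measured Prdm genes, Prdm1 was higher than at Day0 in all 3 cultures. Of all named genes 4.31% were higher at 3w+Dox, 4.05% after withdrawal and 4.89% in iPS cells. Prdm1 is the repressor Blimp1 of plasma cells, germ cells and epithelia. It read 6.65 in Day0 cells, 9.32 on doxycycline, 8.69 after withdrawal and 9.48 in iPS cells, whereas Prdm14 was called in iPS cells alone. Yy2, a retrogene relative of Zfp42, read between 6.56 and 7.17 in the lung populations and 8.30 in iPS cells, a difference of 1.73 between iPS and Day0, short of the call, and Yy1 spanned 10.66 to 11.24.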
